A study of Rattus norvegicus with 12 samples.

Results

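Levels of 10 genes for secreted or secretion-linked mucosal defence proteins are described here across 12 arrays of rat colon: Sftpd, Mptx1, Sval1, Bpifb9a, Pla2g2a, Pigr, Lcn2, Reg3g, Reg3b and S100a9. They are 10 of the 21893 genes the array names, and were found by their names on its gene spots. They were chosen by earlier results of the same arrays, namely their levels by diet and by the array's Hoxb13 and Hoxb6 level, so the levels below are given as a description. The study asked how more protein in the diet changes colonic gene expression. Male rats of the wistar strain ate either a normal protein or a high protein diet for 6 weeks, and each diet had 6 arrays of total RNA labelled as coming from colonic epithelium. Every sample was labelled with Cy3 and hybridised on its own array, and nothing in the labels says whether each array stands for a separate animal. The p-values therefore measure the spread between arrays, which may be partly technical.

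The gut surface is defended by proteins that epithelial cells release into the mucus or carry across to it. Soluble lectins such as the collectin surfactant protein D, the Reg3 proteins and the pentraxins bind sugars or lipids on microbes. Phospholipase A2 breaks bacterial membranes, lipocalin 2 withholds iron, and the polymeric immunoglobulin receptor brings IgA to the lumen. Several of these genes are known to be used unequally along the length of the intestine. Hox genes keep a record of that length, and Hoxb13 is known as a gene of the hindmost colon.

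Levels are log2 of the background-corrected spot intensity after quantile normalization of the 12 arrays. Of the gene spots, between 42.7% and 55.9% were flagged good by the scanner software on an array. A gene was tested where its probe was good on at least 6 of the 12 arrays, and 10449 genes were. The 11353 probes good on no array had a median level of 5.95, and 99.0% of their values lay under 6.5, so values near 6 stand for no measurable signal. Levels of different genes are read by different probes and are not compared with each other. All 20 markers of colon epithelium on the array were tested, and between 18 and 20 of them were good on each array. Between 12 and 13 of 13 smooth muscle markers and 12 of 12 fibroblast markers were good on each array as well, in RNA labelled as epithelial. In such bulk RNA, fewer cells of a type and less RNA per cell cannot be told apart.

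The arrays fell apart by Hox gene level, and the split did not follow the diets evenly. Hoxb13 lay between 11.996 and 12.56 on 6 arrays, which were high protein replicates 1, 2, 5 and 6 and normal protein replicates 1 and 2. The next array was at 9.32 and the lowest at 5.83. Hoxb6, a gene from an earlier position in the same Hox cluster, lay between 10.82 and 10.95 on 3 other arrays and at 7.49 or lower on the remaining 9. Those 3 were high protein replicates 3 and 4 and normal protein replicate 6. Normal protein replicates 3, 4 and 5 were high for neither gene. The Hoxb13-high set thus held 4 high protein and 2 normal protein arrays, the Hoxb6-high set held 2 and 1, and the arrays high for neither were all on the normal protein diet. The sets were drawn from the data at the widest gap in each gene, so they are not groups of the study and no test is run between them. Each slide carried 4 arrays, 2 of each diet, and each of the 3 slides held Hoxb13-high arrays.

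**Figure D1:**
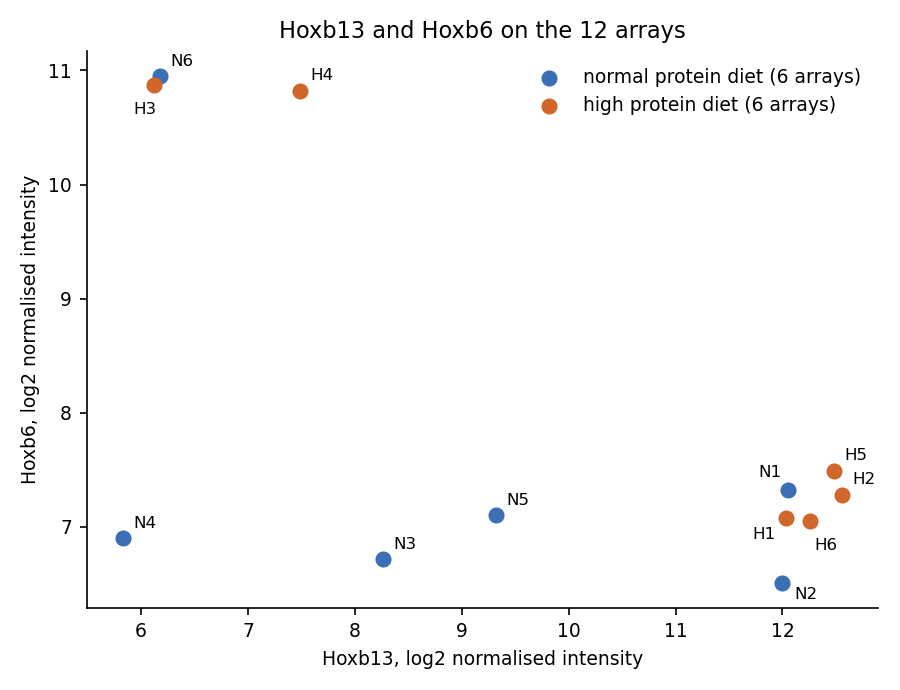
Hoxb6 against Hoxb13 level (both log2 normalised intensity) on the 12 arrays; N marks a normal protein and H a high protein array, with its replicate number. 6 arrays lie between 11.996 and 12.56 for Hoxb13, 3 lie between 10.82 and 10.95 for Hoxb6, and N3, N4 and N5 are high for neither.

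Sftpd encodes surfactant protein D, a collectin that binds microbial sugars and is best known from the lung. Its levels were 13.83, 13.52, 13.94, 13.57, 12.65 and 12.98 on high protein replicates 2, 5, 6 and 1 and normal protein replicates 1 and 2, the Hoxb13-high arrays. On the other arrays they were 10.67, 8.85 and 7.47 on normal protein replicates 5, 3 and 4, and 8.75, 7.95 and 7.94 on high protein replicate 4, normal protein replicate 6 and high protein replicate 3. All 6 Hoxb13-high arrays were above the other 6, and the lowest of them was 3.93-fold above the highest of the others. That gap was the 7th widest of all genes tested, a rank from which nothing is read, since Sftpd was chosen with these levels known. Of the 10449 genes, 1.89% had all Hoxb13-high arrays above the rest and 1.68% had them all below. Sftpd also kept the order of Hoxb13 among the arrays high for neither gene, with replicate 5 highest and replicate 4 lowest for both genes. Of 11 other airway genes on the array, 7 were good on no array. Scgb1a1, the club cell secretory protein, was good on 4 arrays, all of them Hoxb13-high, and lay between 6.441 and 9.61 on the Hoxb13-high arrays and between 5.85 and 6.442 on the others. Napsa, the only airway gene tested, was instead highest on the Hoxb6-high arrays, at 9.29 to 11.07. It lay between 7.61 and 8.29 on the Hoxb13-high arrays. The part of airway-type cells in the Sftpd level was not tested.

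Within the Hoxb13-high arrays the diets separated for Sftpd. The 4 high protein arrays lay between 13.52 and 13.94 and the 2 normal protein arrays between 12.65 and 12.98. The order held under all 6 scalings tried. With 4 arrays against 2, 6.47% of all genes tested showed all high protein arrays above both normal protein arrays, and 5.51% showed them all below, so a separation of this kind was common and was not tested for Sftpd alone. On the other arrays, the 2 high protein values of 8.75 and 7.94 lay within the normal protein range of 7.47 to 10.67.

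Sval1, seminal vesicle antigen-like 1, belongs to a family of secreted proteins known mostly from glands. It lay between 11.93 and 12.75 on the Hoxb13-high arrays. On the others it was 8.19 on normal protein replicates 5 and 3 and 7.44 on high protein replicate 4. It was not flagged good on normal protein replicates 4 and 6 and high protein replicate 3, at 6.53, 6.01 and 6.02. The lowest Hoxb13-high array was 13.4-fold above the highest of the others, the widest such gap of all genes tested. Nothing is read from that rank, since Sval1 was chosen with these levels known. A second probe of Sval1 gave the same split, with 10.25 to 11.22 against 5.76 to 7.21. Its neighbours on the chromosome, Sval2 and the related secretory gene Pip, were good on 0 arrays, at 6.001 or lower. Among 13 genes of male accessory glands on the array, 9 were good on no array and only Spink1, a trypsin inhibitor also made elsewhere, was tested. Spink1 lay between 10.37 and 12.30 on the Hoxb13-high arrays and between 7.87 and 9.52 on the others. Unlike Sftpd, Sval1 showed no order of the diets within the Hoxb13-high arrays, where high protein arrays began at 12.07 and the normal protein arrays stood at 12.40 and 11.93.

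Mptx1 encodes mucosal pentraxin, a colon protein of the same family as C-reactive protein. It was lowest where Hoxb6 was high: 8.59 on high protein replicate 4, with 6.40 on high protein replicate 3 and 6.16 on normal protein replicate 6, neither of which was flagged good. The 3 arrays high for neither Hox gene had 10.91, 12.68 and 11.77 on normal protein replicates 5, 3 and 4. The Hoxb13-high arrays had 14.42, 13.99, 14.24 and 12.69 on high protein replicates 2, 5, 6 and 1, and 13.19 and 13.67 on normal protein replicates 1 and 2. The highest Hoxb6-high array was thus 5.01-fold below the lowest of the other 9, and 2.71% of all genes had the Hoxb6-high arrays all below. The Hoxb13-high arrays were above the rest only by a hair, 12.685 against 12.681 on normal protein replicate 3. That array had the lowest share of spots flagged good, 42.7%. The sets overlapped in the deposited log2 value table and after plain background subtraction. They separated after scaling by the 75th percentile (12.68 against 12.52) or by the median (12.78 against 12.17). Mptx1 therefore divided the arrays widely at Hoxb6, and at Hoxb13 only by a margin that depended on the scaling. Sftpd and Sval1 divided them at Hoxb13.

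The promoters of Mptx1 and Sval1 are shown because both genes varied widely among the arrays, with their widest splits at different places. RefSeq's promoter table for build GRCr8 held 9 of the 10 genes, all but Sftpd. The 250 bases before each start were searched on both strands for 6 motifs. They were the TATA box spelled TATAAA, the site of Cdx factors of the intestine spelled TTTATG, and the posterior Hox sites spelled CCAATAAA or CTCGTAAA. The others were the palindromic STAT site spelled TTCNNNGAA and the HNF1 half-site spelled GTTAAT. The Mptx1 window, chr13:88263870-88264119 on the minus strand, held the HNF1 half-site 3 times, with first bases at -132, -97 and -91 relative to the start. The matches at -97 and -91 lay end to end in opposite orientation, and 6.45% of the 33469 promoters held that half-site at all. The Sval1 window, chr4:71811613-71811862 on the plus strand, held none of the 6 motifs. Capitals mark the matches.
Mptx1: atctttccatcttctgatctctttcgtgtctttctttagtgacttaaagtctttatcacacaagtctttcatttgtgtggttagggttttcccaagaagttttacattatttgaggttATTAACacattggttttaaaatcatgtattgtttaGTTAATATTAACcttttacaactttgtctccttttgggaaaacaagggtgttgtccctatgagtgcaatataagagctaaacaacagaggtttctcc
Sval1: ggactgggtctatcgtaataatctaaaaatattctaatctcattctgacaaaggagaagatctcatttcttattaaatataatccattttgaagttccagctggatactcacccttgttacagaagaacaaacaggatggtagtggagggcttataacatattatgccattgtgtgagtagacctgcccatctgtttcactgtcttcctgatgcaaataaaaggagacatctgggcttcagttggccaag

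The posterior Hox sites were in none of the 9 windows, against 1.05% and 0.12% of all promoters. A match or its lack describes these letters alone and says nothing of whether a factor binds.

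Bpifb9a ran the other way. The name comes from RefSeq through the probe's accession NM_001109633, while the array calls the gene LOC691277. In RefSeq's gene order it sits between Lypd8 and Lypd8l1, which belong to another family, so its identity as a BPI-fold protein is uncertain and no role is given here. It lay between 6.54 and 8.27 on the Hoxb13-high arrays. On the arrays high for neither gene it was 10.78, 10.06 and 11.89, and on the Hoxb6-high arrays 14.32, 13.79 and 12.73. All 6 Hoxb13-high arrays were below the others and all 3 Hoxb6-high arrays were above the other 9, a pattern that a second probe repeated with 6.34 to 8.31 against 9.79 to 13.98 for the Hoxb13 split. Its neighbour Lypd8, a secreted-surface protein that keeps flagellated bacteria off the colon epithelium, stayed between 14.76 and 15.28 on every array. Lypd8 was flagged good on 11 arrays, and saturation of its spots was not checked.

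Reg3g and Reg3b encode small C-type lectins that kill or bind bacteria and are known best from the small intestine. Reg3g was flagged good on the 3 Hoxb6-high arrays alone, at 10.95 on high protein replicate 4, 10.60 on normal protein replicate 6 and 8.34 on high protein replicate 3. On the other 9 arrays it lay between 5.76 and 6.20. Reg3b was good on the same 3 arrays, at 9.37, 9.64 and 7.42, and lay between 5.76 and 5.996 elsewhere. Both genes thus had signal on arrays of either diet that shared a high Hoxb6 level, and high protein replicate 3 was the lowest of the 3 for each. Being good on 3 arrays, neither gene entered the test. Their relatives Reg1a and Reg3a were good on 0 and 1 arrays. Reg4, a related lectin-like protein of enteroendocrine and goblet cells, was also above all other arrays there, at 7.93 to 13.25 against 5.91 to 6.60. Across all genes tested, 2.02% had the 3 Hoxb6-high arrays above the other 9, or 211 genes, and 115 genes did after scaling by the median.

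The Reg3g and Reg3b promoters are shown because these genes appeared together on the same 3 arrays. Aligned end to end, their 250 bases matched at 172 of 263 columns, or 65.4%, while the other 35 pairs among the 9 windows matched at 44.6% to 51.4%. Both held the TATA box, with its first base at -32 in Reg3g and at -29 in Reg3b. It stood in 4 of the 9 windows and in 12.9% of all promoters. Reg3b alone among the 9 held the STAT site, which stood in 7.67% of promoters, and it also held the Cdx site, found in 11.4%. Capitals mark the matches in Reg3g, chr4:112484739-112484988 on the minus strand, and in Reg3b, chr4:112419526-112419775 on the plus strand.
Reg3g: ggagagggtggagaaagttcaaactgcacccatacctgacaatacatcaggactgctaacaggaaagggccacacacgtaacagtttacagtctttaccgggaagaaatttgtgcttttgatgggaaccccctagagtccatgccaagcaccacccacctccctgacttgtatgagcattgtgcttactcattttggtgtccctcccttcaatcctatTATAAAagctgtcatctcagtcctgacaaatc
Reg3b: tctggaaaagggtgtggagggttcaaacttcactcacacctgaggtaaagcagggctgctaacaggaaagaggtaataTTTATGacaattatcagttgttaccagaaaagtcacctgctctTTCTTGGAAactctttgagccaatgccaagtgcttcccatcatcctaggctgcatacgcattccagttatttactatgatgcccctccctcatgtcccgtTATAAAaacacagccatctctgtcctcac

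Pla2g2a encodes the secreted group IIA phospholipase A2, which attacks the membranes of Gram-positive bacteria. It lay between 11.55 and 13.89 on the Hoxb13-high arrays and between 10.05 and 11.60 on the others. The sets overlapped by normal protein replicate 1 in the first and replicate 3 in the second, which places Pla2g2a just outside the genes that separated. It separated after scaling by the 75th percentile or the median in place of quantiles. The other secreted phospholipases beside it on the chromosome, Pla2g5 and Pla2g2e, were good on 0 arrays. Pla2g2d was low throughout, between 6.54 and 7.38.

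S100a9 encodes a subunit of calprotectin, the metal-binding complex of neutrophils and stressed epithelia. It was flagged good on the 6 Hoxb13-high arrays alone, at 6.51 to 7.50, against 5.99 to 6.47 on the others. It passed the filter only through the arrays on which it was higher, so its separation carries no weight, and it was lost after scaling by the 75th percentile. Its partner S100a8 was good on 1 array. Of 24 other neutrophil genes on the array, 19 were good on at most 1 array, and between 4 and 7 were good on any one array. The mean level of the 5 neutrophil genes tested was 8.05 to 8.57 on the Hoxb13-high arrays and 8.33 to 8.66 on the others. Those 5 were Lyz2, Itgam, Ncf1, Ncf4 and Alox5ap, and Lyz2 and Itgam are also in the macrophage list. Of 17 markers of squamous epithelium on the array, a list added after the values were seen, 3 were good on each Hoxb13-high array and between 3 and 5 on each of the others.

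Lcn2, which binds the iron carriers of bacteria and is known to rise sharply in inflamed gut, stayed close to background. It was good on 3 arrays, normal protein replicates 4, 5 and 6, at 6.80, 6.48 and 6.87, and lay between 6.08 and 6.80 on the other 9. Low signal on these arrays bounds the level and does not show that the gene is silent.

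Pigr encodes the receptor that carries polymeric IgA through the epithelium. It was well measured on every array. By its brightest probe it varied least among the genes with strong signal, from 11.83 to 13.51. The Hoxb13-high arrays covered that whole range and the others lay between 12.15 and 12.91. High protein replicate 1 was lowest and high protein replicate 5 highest, both of them Hoxb13-high. All 3 probes of Pigr overlapped between the sets. Its dimmest probe varied more, at 10.05 to 10.93 on the Hoxb13-high arrays and 8.26 to 10.68 on the others.

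**Figure D2:**
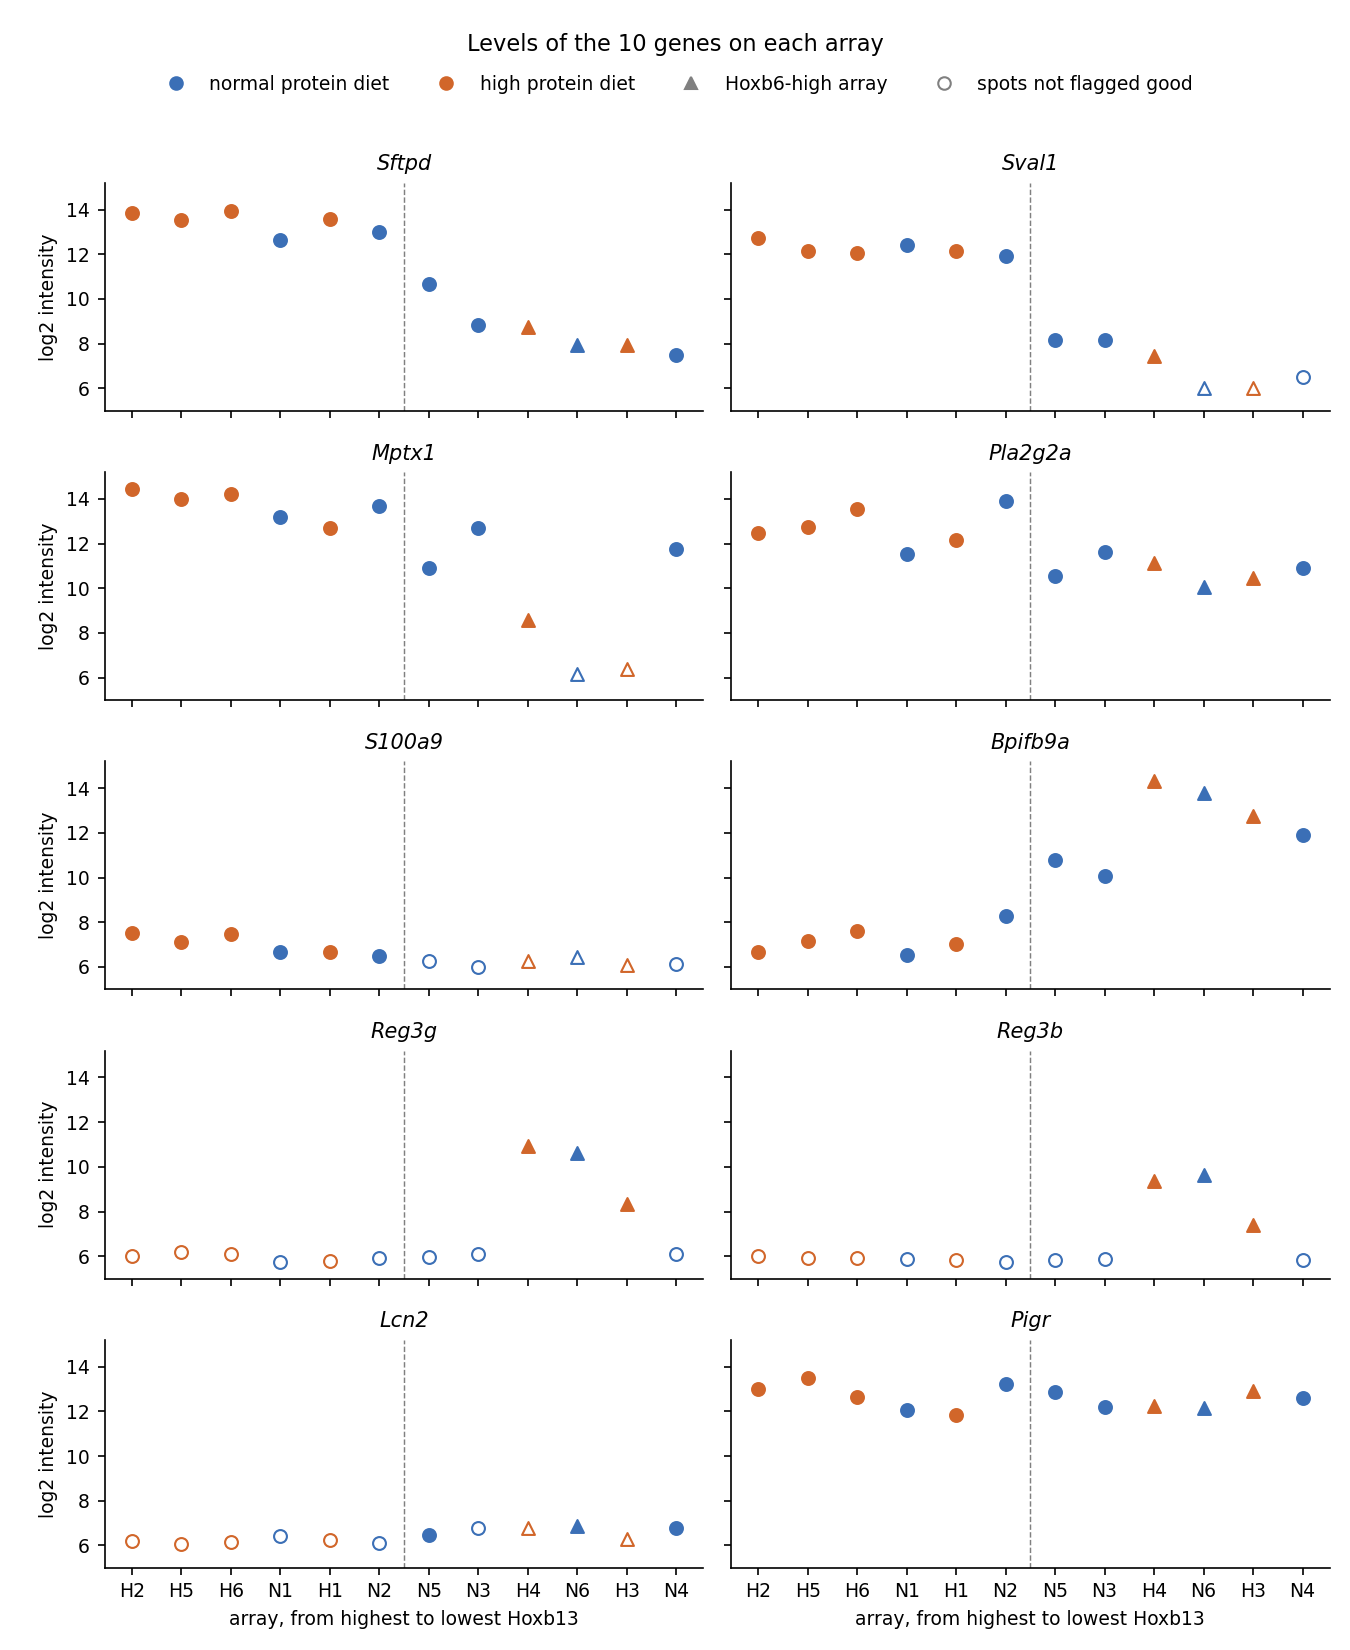
Level (log2 normalised intensity) of each of the 10 genes on the 12 arrays, ordered from highest to lowest Hoxb13; the dashed line closes the 6 Hoxb13-high arrays, triangles are Hoxb6-high arrays and open symbols are spots not flagged good. Sval1 lies at 11.93 or higher to the left of the line and at 8.19 or lower to its right, and Bpifb9a runs opposite. Reg3g and Reg3b have signal on the triangles, and the brightest Pigr probe stays between 11.83 and 13.51.

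In all, 4 of the 10 genes (Sftpd, Sval1, Mptx1 and S100a9) had the Hoxb13-high arrays all above the others and 1 (Bpifb9a) had them all below. The genes were chosen with such levels known, so nothing is read from these counts beside the 1.89% and 1.68% of all genes. The genes most like each tested member were taken by Pearson's r over the 12 arrays, which share the set structure above and one normalization. Sftpd was most like Hoxb13 itself (r = 0.99) and B3gnt7, a glycosyltransferase (r = 0.99). Sval1 had the same pair, in the opposite order, at r = 0.99 each. Both genes were chosen with their relation to Hoxb13 known, so nothing is read from these likenesses. Mptx1 was most like Pkp1, a desmosome protein, and Scnn1a, the alpha subunit of the epithelial sodium channel, both at r = 0.97. Bpifb9a was most like Spmip11 (r = 0.97) and Ppp2r3a (r = 0.96), the latter with levels from 6.55 to 7.26. Pla2g2a was most like Tc2n and Epb41l3 (r = 0.91 each). Pigr was most like Tut4 (r = 0.92) and Lmnb1 (r = 0.91), a nuclear lamin. S100a9 was most like Gsta5 (r = 0.94), a glutathione transferase, and Csta3 (r = 0.93), a cystatin A.

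By diet, no gene passed the test. With limma across all genes and Benjamini-Hochberg adjustment, 0 of 10449 genes (0%) had an adjusted p under 0.05, and the smallest adjusted p was 0.68. Without adjustment, 692 genes (6.62%) had p under 0.05, of which 383 were higher and 309 lower on high protein. That split was 318 to 482 after scaling by the 75th percentile and 1128 to 78 after scaling by the median, which moved the median difference of all genes from 0.0054 to 0.097. The split was 294 to 358 after plain background subtraction. The 2 diets did not overlap for 0.383% of all genes tested and for 0 of the 10 members.

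Sftpd had a lowest, median and highest level of 7.94, 13.54 and 13.94 on high protein and of 7.47, 9.76 and 12.98 on normal protein. The ranges overlapped widely, and each diet held both high and low arrays. The means were 11.92 ± 2.79 (SD, n = 6) and 10.10 ± 2.37 (SD, n = 6). The difference of 1.83 ± 1.32 (SE), or 3.55-fold, had a 95% interval from -1.02 to 4.68 and an adjusted p of 0.78 in limma. Of all genes tested, 0.526% differed by 2-fold or more between diet means, and nothing is read from this share for genes chosen with their diet levels known. Without single arrays the difference lay between 1.30 (without normal protein replicate 4) and 2.63 (without high protein replicate 3). With the Hoxb13 and Hoxb6 levels of each array in the fit it was 0.42 ± 0.25 (SE), with an interval from -0.12 to 0.97. Hoxb13 itself differed by 1.55 between the diets (limma adjusted p = 0.81). The members were chosen with their relation to Hoxb13 known, so nothing is read from how their differences change in that fit.

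Sval1 followed the same course. It had 6.02, 12.10 and 12.75 on high protein and 6.01, 8.19 and 12.40 on normal protein as lowest, median and highest levels, with both diets spanning nearly the same range. The difference was 1.55 ± 1.43 (SE; limma adjusted p = 0.81), and 0.15 with the Hox levels in the fit. It was 0.98 without normal protein replicate 6 and 2.43 without high protein replicate 3. Within slide 3 it was -0.16. Bpifb9a had 6.68, 7.37 and 14.32 on high protein and 6.54, 10.42 and 13.79 on normal protein, again overlapping. Its difference was -0.97 ± 1.52 (SE; limma adjusted p = 0.88), and -0.27 with the Hox levels in the fit. It was -0.26 without normal protein replicate 6 and -1.98 without high protein replicate 4.

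Mptx1 had 6.40, 13.34 and 14.42 on high protein and 6.16, 12.23 and 13.67 on normal protein. Its difference of 0.32 ± 1.57 (SE; limma adjusted p = 0.96) turned to -0.72 without normal protein replicate 6 and to -2.52 within slide 3, and was 1.39 without high protein replicate 3. It was 0.86 with the Hox levels in the fit, with an interval from -0.29 to 2.01. Pla2g2a had 10.48, 12.31 and 13.56 on high protein and 10.05, 11.23 and 13.89 on normal protein. Its difference was 0.66 ± 0.63 (SE; limma adjusted p = 0.81), with 1.16 without normal protein replicate 2, 0.37 without high protein replicate 6 and -0.78 within slide 3.

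S100a9 had 6.09, 6.88 and 7.50 on high protein, where it was good on 4 arrays, and 5.99, 6.36 and 6.68 on normal protein, where it was good on 2. The difference of 0.51 ± 0.24 (SE) had a limma adjusted p of 0.73 and was 0.26 with the Hox levels in the fit. Pigr had 11.83, 12.79 and 13.51 on high protein and 12.07, 12.38 and 13.20 on normal protein. Its difference of 0.18 ± 0.27 (SE; limma adjusted p = 0.88) had an interval from -0.41 to 0.77, the narrowest but one among the 7. Within slide 2 it was -0.066, and without high protein replicate 5 it was 0.013. These values are from the brightest Pigr probe, and the other probes had differences of 0.55 and 0.20.

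Each slide held 2 arrays of each diet, and with slide as a block 0 genes passed (smallest adjusted p 0.50 in limma). Within single slides, of 2 arrays against 2, the difference ran from 0.50 to 2.95 for Sftpd and from -0.16 to 2.66 for Sval1. It ran from -2.52 to 2.88 for Mptx1, from -1.45 to -0.14 for Bpifb9a and from -0.78 to 2.04 for Pla2g2a. S100a9 stayed between 0.27 and 0.74 and Pigr between -0.066 and 0.32. The Sftpd and Bpifb9a differences had 1 direction on all 3 slides. The share of all genes that did so was not counted. Nothing is read from these directions, since the genes were chosen with their diet levels known. S100a9 passed the filter through the Hoxb13-high arrays, so its direction carries no weight either.

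The 3 genes that were not tested had means of 7.23 ± 2.05 and 6.74 ± 1.89 for Reg3g, 6.74 ± 1.42 and 6.48 ± 1.55 for Reg3b and 6.30 ± 0.25 and 6.58 ± 0.30 for Lcn2 on high and normal protein (SD, n = 6 each). For Reg3g and Reg3b, 2 high protein arrays and 1 normal protein array made up the signal, and the rest lay at background. Without normal protein replicate 6 the difference was 1.26 for Reg3g and 0.90 for Reg3b, and without high protein replicate 4 it was -0.26 for each. With the Hox levels in the fit it was -0.41 for Reg3g and -0.54 for Reg3b.

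**Figure D3:**
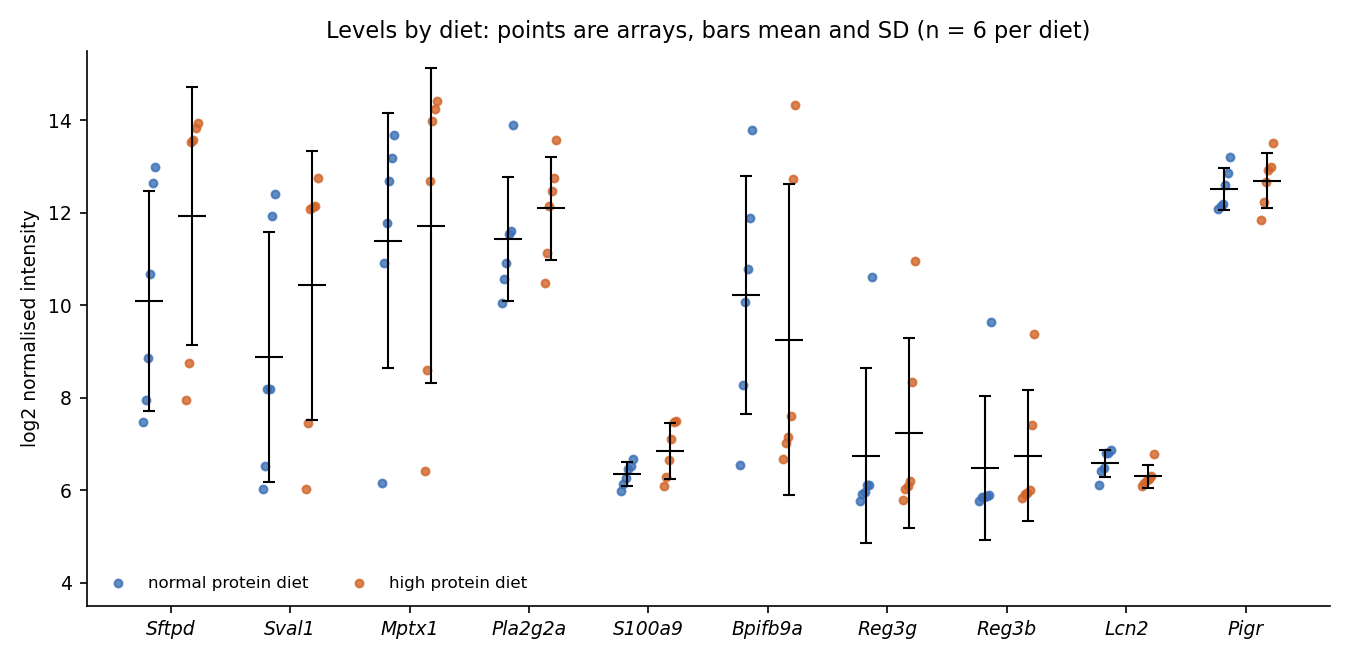
Level (log2 normalised intensity) of each gene on each array by diet, with mean and SD (n = 6 arrays per diet). High and low arrays occur in both diets for Sftpd, Sval1, Mptx1 and Bpifb9a, and the ranges overlap for all 10 genes.

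**Figure D4:**
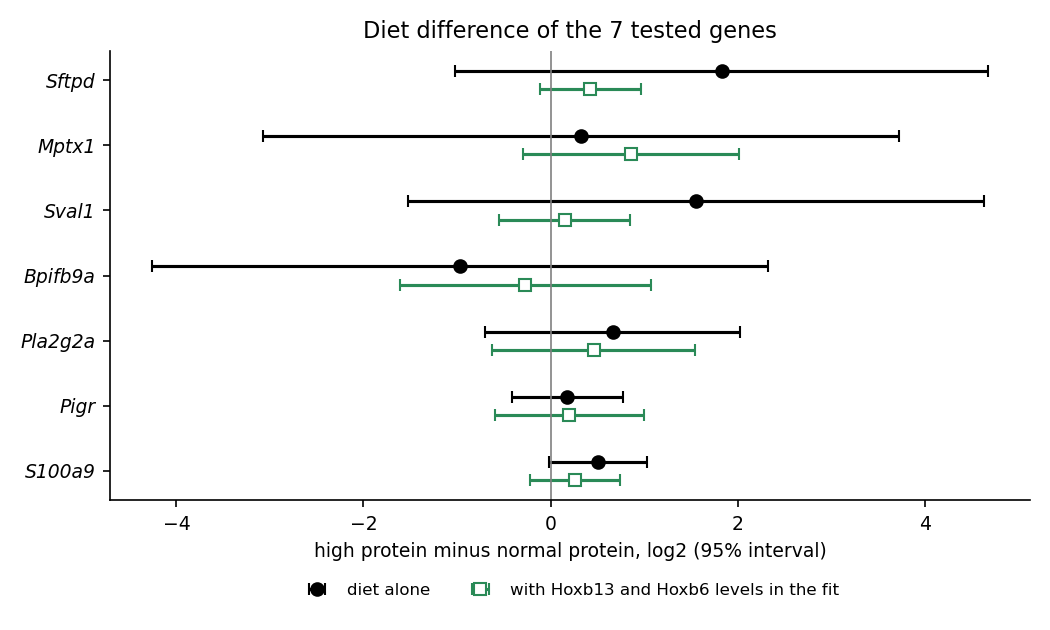
Difference between diet means (log2, high minus normal protein) with its 95% interval for the 7 tested genes, from limma with diet alone (filled) and with the Hoxb13 and Hoxb6 levels of each array in the fit (open). The Sftpd difference goes from 1.83 to 0.42 and that of Sval1 from 1.55 to 0.15. Mptx1 goes from 0.32 to 0.86 and Pigr from 0.18 to 0.20, and all intervals include 0. The genes were chosen with their Hox relation known, so nothing is read from these changes.

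The wider set of mucosal defence genes was taken from 4 lists without the 10 members, of which 69 genes were tested and 0 passed the diet test. Of 43 genes of the mucosal defence list on the array 21 were tested, with 4 higher and 17 lower on high protein. The median difference was -0.19, beside 0.0054 for all genes. The median lay between -0.29 and -0.061 over 6 scalings. Zg16, a goblet cell lectin that binds Gram-positive bacteria, had the smallest p of this list. It was at 12.44 ± 0.56 on high protein and 13.56 ± 0.72 on normal protein (SD, n = 6), a difference of -1.12 ± 0.33 (SE; limma adjusted p = 0.68). S100g differed by 1.62, Lypd8 by -0.19 and Tmsb4x, thymosin beta 4, by -0.35. S100g is a calcium-binding protein of the S100 family, counted among the 4 higher genes although its place in a defence list is uncertain.

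Of 26 other lectins, pentraxins and related recognition proteins 15 were tested, 4 higher and 11 lower, with a median of -0.20. Lgals9, Lgals1 and Lgals5 are galectins that bind galactose-bearing glycans, and differed by -0.46, -0.72 and -0.37. C1qa, a complement recognition subunit, differed by -0.37. Of 22 genes of IgA transport and production 12 were tested, 4 higher and 8 lower, with a median of -0.24. Among them Xbp1, a factor for secretory cells, differed by -0.30, Mzb1, a plasma cell chaperone, by -0.61, Sdc1 by -0.25 and Fcrla by 0.41. The 6 plasma cell genes tested all had differences below 0, as had 5070 of all 10449 genes tested. These 6 genes are also among the 8 lower ones of the IgA list, so they are no separate result. Their mean level was 7.43 to 8.62 on high protein and 7.29 to 8.62 on normal protein arrays. Of 41 genes of IL-17 and IL-22 signalling, the cytokines that drive Reg3, Lcn2 and S100a9 in epithelium, 21 were tested, 13 higher and 8 lower, with a median of 0.064. Jak1 differed by -0.25, Hif1a by -0.35, the receptor subunit Il17ra by 0.23 and Cebpb by 0.24. Over the 6 scalings the median lay between -0.27 and -0.10 for the lectins, between -0.40 and -0.15 for the IgA genes and between 0.063 and 0.19 for IL-17 and IL-22 signalling. None of these 16 named genes passed in limma, the smallest adjusted p among them being 0.68.

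By Hox level, 13 of the 69 genes had non-overlapping array sets, and they are named because they did so. Over all genes the shares were 1.89% above and 1.68% below for the Hoxb13-high arrays, and 2.02% above and 2.71% below for the Hoxb6-high arrays. Lpo, lactoperoxidase, and Wfdc2, a protease inhibitor, were higher on the Hoxb13-high arrays, with medians of 10.70 and 11.48, than on any other array. Dmbt1, a mucosal scavenger receptor glycoprotein, and Muc2, the gel-forming mucin, were lower there than on any other array, Dmbt1 at 7.01 to 9.25 against 9.73 to 11.13 elsewhere. Ccl28, a chemokine for IgA plasma cells, and Tnfsf13, which sustains those cells, were higher on the Hoxb13-high arrays, Ccl28 at 8.29 to 9.41 against 6.86 to 8.07. Lgals5 was lower there. Tlr4, the receptor for bacterial lipopolysaccharide, was highest on the Hoxb13-high arrays at 8.44 to 8.96, lower on the arrays high for neither at 7.55 to 8.24 and lowest on the Hoxb6-high arrays at 6.89 to 7.01. On the Hoxb6-high arrays Retnlb, a goblet cell antibacterial protein, was at 6.09 to 6.74, while it was at 11.14 to 13.60 on the other 9. Duox2, which makes hydrogen peroxide, and Pla2g10, another secreted phospholipase, were also lower there, and Reg4 and Tmsb4x were higher. The nearest arrays of the sets were close for Duox2 (11.0535 against 11.0618), Pla2g10 (11.1187 against 11.1251) and Tmsb4x (13.0476 against 13.0422). The sets overlapped under 1 or more other scalings for Lpo, Duox2, Tmsb4x and Lgals5.

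**Figure D5:**
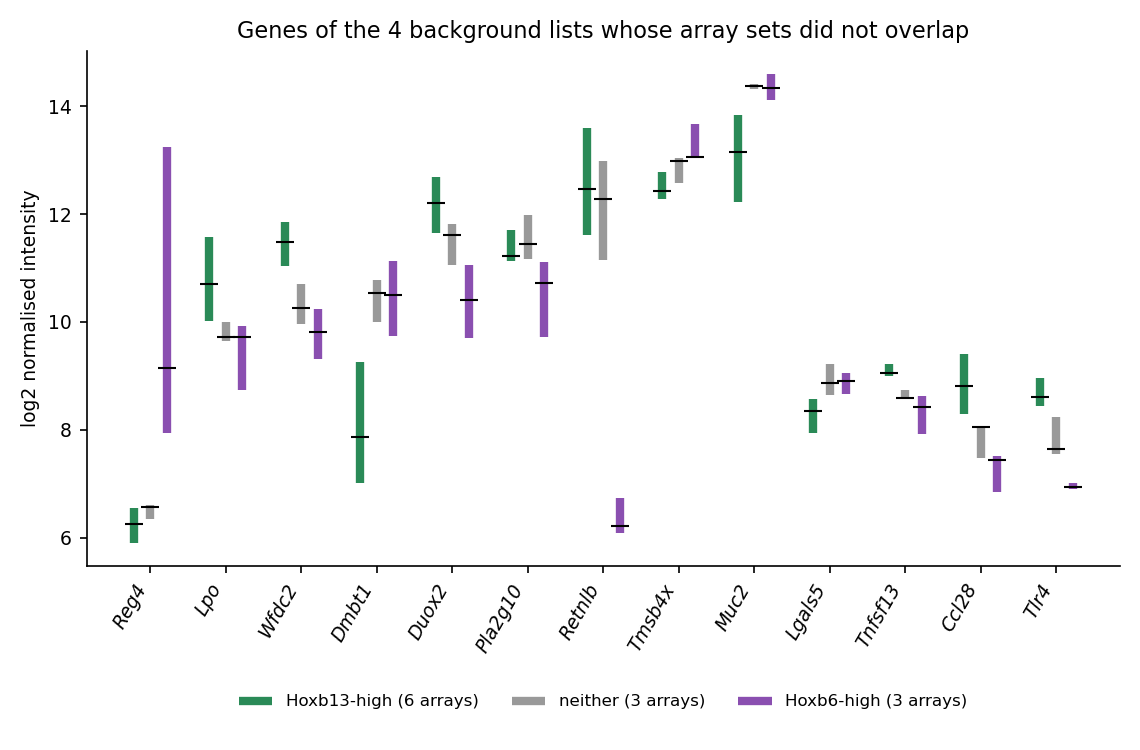
Range (bar) and median (line) of the log2 normalised intensity of the 13 defence list genes whose array sets did not overlap, on the 6 Hoxb13-high, 3 neither and 3 Hoxb6-high arrays. Retnlb falls to 6.09 to 6.74 and Reg4 reaches 13.25 on the Hoxb6-high arrays, and Dmbt1 is lowest on the Hoxb13-high arrays.

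Of 14 goblet cell markers, all tested, 3 (Muc2, Agr2 and Spink4) were lower on all Hoxb13-high arrays, beside 1.68% of all genes. Another 3 (Tff3, Retnlb and Bcas1) were lower on all Hoxb6-high arrays, beside 2.71%. The other 8 overlapped at both splits. The mean of the list was 10.09 to 10.79 on the Hoxb13-high arrays and 9.73 to 11.20 on the others. By diet 11 of the 14 were lower on high protein, with a median of -0.43 that stayed between -0.43 and -0.28 over the scalings, and 0 passed. Muc2, Fcgbp, Zg16 and Retnlb are also among the 17 lower genes of the mucosal defence list, so they are no separate result. Muc2 and Retnlb were also named above by Hox level. The part of goblet cells in the levels of the 10 genes was not tested.

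Of the other marker lists, 0 genes passed the diet test. The median difference was -0.26 over 15 macrophage genes and -0.22 over 5 neutrophil genes, and stayed below 0 under each scaling. Lyz2 and Itgam are in both of these lists, and C1qa, C1qb and C1qc are also in the lectin list, so these are not separate results. The median difference was -0.10 over 20 epithelial, -0.15 over 13 smooth muscle, -0.061 over 12 fibroblast and -0.15 over 7 small intestine genes. Each of these medians turned above 0 under at least 1 scaling. It was 0.019 over 2 acinar genes and -0.027 over 3 squamous genes, with either sign over the scalings. It was 0.78 over 6 Hox genes of colon position, Hoxb13 and Hoxb6 among them, and between 0.65 and 1.12 over the scalings.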

How the data were processed

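Each array's deposited file held the spot intensity and local background, as linear scanner output that was not normalized, and a flag score, both per the file headers. The series table held log2 values, per the labels, while RMA is named, with no role, in the submitters' processing notes. Its IDs were displaced: moved by 1 row they matched the scanner values (median r 0.997 over 6117 bright probes), and as given they did not (0.0038). It was used only so moved, as an alternative. Its centring is unknown.

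Gene spots (42877, of 30367 probes) were background-corrected with normexp (offset 50), quantile-normalized and averaged per probe, with R 4.3.3 and limma 3.58.1. Of the 24531 probes with an accession, 18809 were named from it. A probe was tested if at least a share of 0.5 of its spots was flagged good on at least 6 of 12 arrays, and the brightest tested probe stood for a gene; 1467 of 13204 passing probes had no name and were left out. No 2 arrays held identical values (0 pairs), and no member's spots were saturated. Diet was tested with lmFit and eBayes on all 12 arrays, with Benjamini-Hochberg adjustment, and the steps were checked on simulated data. The number of arrays limits the precision.

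The members and the gene lists were chosen with earlier results of these data known. Genes named are the 10 members, Hoxb13 and Hoxb6, the 2 genes of highest r for each tested member, and the 4 genes of smallest p in each of 4 defence lists. Genes named for their Hox sets, neighbours and relatives were added after their values were seen. Marker lists for epithelium, smooth muscle, fibroblasts, goblet cells, neutrophils, macrophages, plasma cells, acinar cells, small intestine, airway, male accessory glands, colon position and squamous epithelium were read as lists. Alternatives covered scaling, background correction, the flag filter, probe averaging, slide, replicate number, Hox levels, the value table, a plain test per gene and each array left out.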

Additional observations from a re-analysis of the deposited data

Results flagged for a closer look

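In 7 cases an array stood apart from the other 5 of its diet by Dixon's criterion, which chance alone meets in about 1 in 20 groups; 52 groups were checked. Normal protein replicate 6 stood apart for 3 members. Its Mptx1 level was 6.16 while the other 5 normal protein arrays lay between 10.91 and 13.67, its Reg3g level was 10.60 against 5.76 to 6.11, and its Reg3b level was 9.64 against 5.76 to 5.89. It was the one Hoxb6-high array of its diet. Lcn2 was 6.78 on high protein replicate 4, where its spot was not flagged good, against 6.08 to 6.31. Among the list genes, Mzb1 was 7.81 on high protein replicate 1 against 6.28 to 6.76, Fcrla was 7.93 on normal protein replicate 2 against 6.58 to 6.89, and Il17ra was 10.40 on normal protein replicate 3 against 9.86 to 9.99.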

How the results depend on the processing

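No member passed the diet test under any alternative. Over all genes, 0 passed in every alternative except within slide 3, where 1 gene, Bik, passed. Among the 26 member and list gene differences, 672 alternative values were counted as unchanged, 10 as reversed and 3 as moved. For tested genes unchanged means the same direction and side of the threshold. None of these genes passed in any setting, so it came down to the same sign. The Sftpd difference counts as unchanged although it went from 1.83 to 0.42 with the Hox levels in the fit. For the untested members unchanged means a shift smaller than the larger SD of the diets, whatever the sign. Reversed values were -0.066 for Pigr and 0.030 for Sdc1 within slide 2, and -2.52 for Mptx1, -0.16 for Sval1, -0.78 for Pla2g2a and -0.42 for Fcrla within slide 3. Leaving out single arrays gave -0.72 to 1.39 for Mptx1. For untested members, Lcn2 was -0.86 after plain background subtraction and -0.76 in the value table, and Reg3b was 2.35 in the value table. Reg3g and Reg3b changed sign, to -0.41 and -0.54, with the Hox levels in the fit, to -0.26 each without high protein replicate 4, and within single slides had lowest values of -0.033 and -0.091. The causes were not tested. With the replicate number as a block, 0 genes passed (813 at an unadjusted p under 0.05, smallest adjusted p 0.34 in limma, 0.64 for Sftpd). Same-numbered arrays had deviations correlated at -0.11 to 0.40, 3 of 6 above 0.1. Of the 6 high protein arrays, 3 correlated best with the normal protein array of their own number. These values do not settle whether the numbers mark a pairing. The count of members separated at Hoxb13 was 4 in the value table and 6 after median scaling, against 5; which members separated differed too, with Lcn2 added after plain background subtraction. Over all genes that separation was above to below 197 to 176, and 291 to 80 after median scaling; at Hoxb6 it was 211 to 283, 135 to 303 after 75th percentile scaling and 115 to 164 after median scaling.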

Other observations

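A single spot stood out near Sftpd. Sftpa1, the gene of surfactant protein A and a neighbour of Sftpd on the chromosome, had a level of 15.502 on high protein replicate 4, from a signal of 45236 over background, where its spot was not flagged good. On the other 11 arrays it lay between 5.76 and 6.097, with no spot flagged good. Mbl1, the collectin gene between them, was at 6.14 or lower on all 12 arrays. Among 11 airway genes only Napsa, an aspartic protease, was tested. It lay between 9.29 and 11.07 on the Hoxb6-high arrays and between 7.61 and 8.29 on the Hoxb13-high arrays, and at 8.19 to 8.34 on the arrays high for neither, so its sets overlapped at the Hoxb13 split.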
